A study of Mus musculus with 5 samples.

Results

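The genes described here are 10 alpha and beta chains of the integrins carried by monocytes and macrophages, Itgam, Itgal, Itgax, Itgb2, Itga4, Itga6, Itgb1, Itgb7, Itgav and Itgb5. They were taken from the count table by their symbols, and all 10 were among its 21289 genes. An integrin is a surface receptor made of an alpha chain and a beta chain, and a chain reaches the cell surface only with a partner. Integrins hold leukocytes to vessel walls and to matrix, and talin and kindlin binding to the beta chain's tail switches them from a resting to an adhesive state. In the infarcted heart they take part in the entry of monocytes from blood and in the uptake of opsonised debris.

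The RNA came from sorted CD45+CD64+ cells, the gate used for cardiac macrophages, of male wild-type C57BL/6JGpt hearts taken 7 days after infarction. Curcumol, a plant sesquiterpene, was given by gavage at 30 mg/kg daily for 7 days in the group with 3 samples, and the group with 2 samples had an infarct and no curcumol. All 5 samples thus came from infarcted hearts, and uninjured hearts were not analysed here. Nothing in the labels tells separate animals from pools, so the p-values below measure only the spread between these samples.

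Total counts were 39768705 to 41117439 in the curcumol libraries and 41663017 and 43315822 in the untreated libraries. A gene count above 0 was found for 17078 to 18501 genes with curcumol, against 12243 and 12915 genes without it. Levels are CPM, counts scaled to a common library size with edgeR's TMM factors, and levels of different genes are compared as CPM per kb of transcript. Differences are log2 fold changes, curcumol over untreated, ± SE from edgeR's quasi-likelihood test over 14508 genes, with Benjamini-Hochberg adjusted p-values and a threshold of 0.05. The sorting markers matched the label. Ptprc, which encodes CD45, stood at 297 to 456 CPM with curcumol and at 260 and 321 CPM without it, and Fcgr1, which encodes CD64, at 250 to 329 CPM with curcumol and at 349 and 373 CPM without it. The summed level of 8 macrophage and monocyte markers was 27197 to 32240 CPM with curcumol and 35742 and 36117 CPM without it. Lyz2 made up most of each sum, at 20527 to 24144 CPM with curcumol and 24996 and 26055 CPM without it. Of the 8 genes 1 (Mertk) was higher in every curcumol library and 4 (Fcgr1, Cd68, Lyz2 and Cd14) lower. Over all tested genes these shares were 29.5% and 14.9%.

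No integrin chain passed the threshold. At an unadjusted p under 0.05, 3 chains were higher with curcumol (Itgam, Itgax and Itga4) and 1 was lower (Itgb2), by DESeq2 2 chains passed, Itgam higher and Itgb2 lower, and by limma-voom 0 passed. DESeq2 called 16.5% of all tested genes and limma-voom 11.4%, so 2 of 10 chains is near DESeq2's own background. Without untreated replicate 1, where 2 chains passed in edgeR, 18.7% of all genes tested in that fit were called. Over all tested genes 0.207% passed the adjusted threshold, while 18.1% were higher and 6.51% lower at an unadjusted p under 0.05. For the same 4 chains the curcumol libraries did not overlap the untreated ones, 3 all higher and 1 lower, where 29.5% of all tested genes were all higher and 14.9% all lower. The chains' median log2 fold change was 0.08, beside 0.15 for all tested genes. The shares of non-overlapping chains were thus near those of the whole table, and with 10 chains the counts set none of them apart. Among the 4398 genes with an average log2 CPM of at least 5, which include 7 of the chains, 15.5% were all higher and 27.3% all lower, and of those 7 chains Itgam was all higher and Itgb2 all lower.

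**Figure D1:**
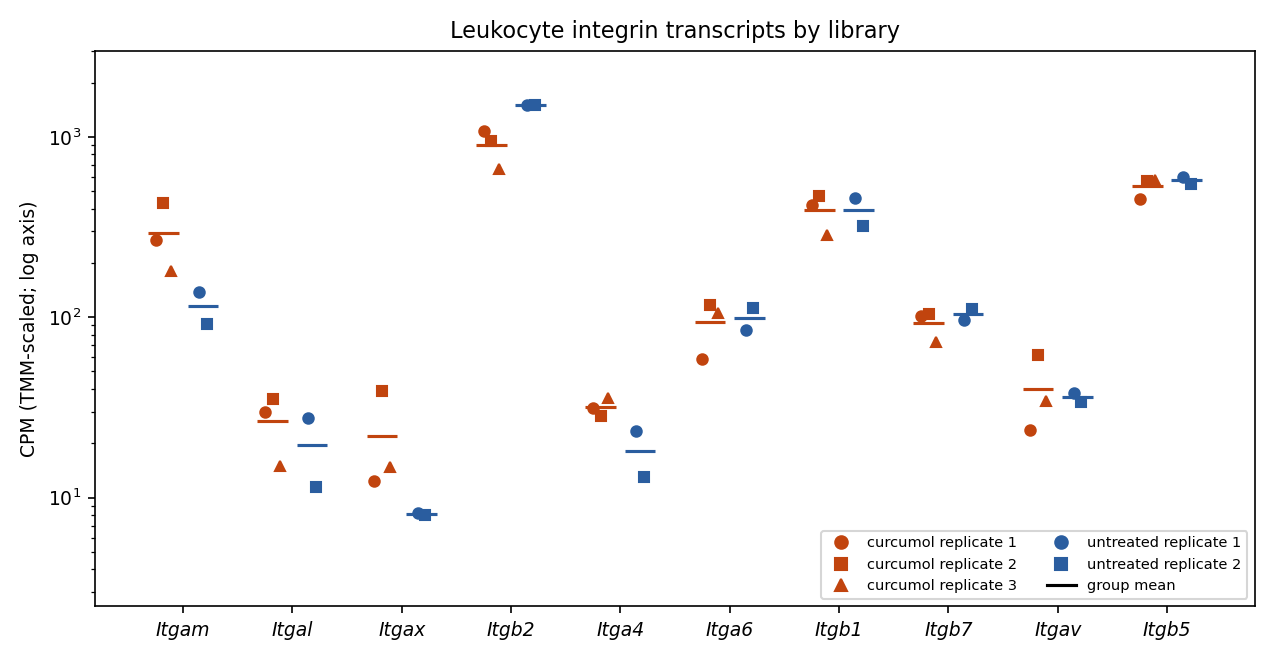
CPM of the 10 integrin chains on a log axis, 1 point per library (3 curcumol, 2 untreated), with a line at each group mean. Itgam, Itgax and Itga4 lay above the untreated points in all 3 curcumol libraries and Itgb2 below them, and the points of the other 6 chains overlapped.

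Beta chains were the abundant transcripts. Per kb of transcript, Itgb2 ranked highest, Itgb5 came next and Itgb1 after it in each of the 5 libraries. Itgb2, the common beta chain of the leukocyte integrins, averaged 302 ± 71.6 CPM per kb with curcumol and 504 CPM per kb without it (SD, n = 3 and 2), with untreated values that differed by less than 1 CPM per kb. Itgb5, which pairs with the alpha-v chain Itgav to bind vitronectin, averaged 162 ± 21.9 CPM per kb with curcumol and 175 ± 12.0 CPM per kb without it. Itgb1, the most widely shared beta chain, averaged 103 ± 24.9 CPM per kb with curcumol and 102 ± 25.9 CPM per kb without it. The library ranges of Itgb2, Itgb5 and Itgb1 were separate from each other in both groups.

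Among the alpha chains Itgam had the highest mean, at 62.4 ± 26.9 CPM per kb with curcumol and 24.5 ± 6.91 CPM per kb without it. In the untreated group its library range overlapped that of Itga6, which was the higher of the pair in untreated replicate 2. Itgam ranked 4 in all 3 curcumol libraries, ahead of the beta chain Itgb7, and 5 or 6 in the untreated libraries, behind it. Within the curcumol group, however, the library ranges of Itgb1 and Itgam, of Itgam and Itgb7, and of Itgb7 and the alpha chain Itga6 overlapped. Itgav, Itgax, Itgal and Itga4 were the lowest, with means of 3.25 to 5.66 CPM per kb with curcumol and 1.86 to 5.10 CPM per kb without it. Their order did not stand out from the spread within the curcumol group. The lengths are those of the longest coding transcript, 9767 bases for Itga4 and 2683 bases for Itgb7, so genes expressed as shorter forms are understated.

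In the Itgb2 family the beta chain was lower in every curcumol library and the main alpha chain higher. Itgam encodes CD11b, the alpha chain of complement receptor Mac-1, which binds iC3b, fibrinogen and ICAM-1. It stood at 269, 428 and 180 CPM in the curcumol libraries and at 138 and 92.0 CPM in the untreated libraries. Every curcumol library was above both untreated ones, and curcumol replicate 2 was the highest. The log2 fold change was 1.35 ± 0.40 (95% interval 0.40 to 2.30, unadjusted p = 0.0130, adjusted p = 0.0934 in edgeR's quasi-likelihood test), a 2.55-fold difference that did not pass. It passed by DESeq2 (adjusted p = 0.00708) and without untreated replicate 1 (1.67, adjusted p = 0.0315).

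Itgb2 encodes CD18, the partner that Itgam, Itgal and Itgax share. It stood at 1077, 948 and 662 CPM in the curcumol libraries and at 1495 and 1496 CPM in the untreated libraries. All 3 curcumol libraries were lower, with replicate 3 the lowest. The log2 fold change was -0.74 ± 0.23 (95% interval -1.29 to -0.19, unadjusted p = 0.0157, adjusted p = 0.103), which did not pass in edgeR and passed by DESeq2 (adjusted p = 0.0142). These are levels of RNA in sorted cells in bulk, in which fewer cells of a type and less RNA per cell cannot be told apart.

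Itgax, which encodes CD11c, the alpha chain of a further iC3b receptor found on dendritic cells and some macrophages, stood at 12.4, 38.9 and 14.7 CPM in the curcumol libraries and at 8.24 and 8.03 CPM in the untreated libraries. The groups did not overlap, and curcumol replicate 2 lay far above the other 4 libraries. Its log2 fold change was 1.44 ± 0.57 (unadjusted p = 0.0436, adjusted p = 0.187), and it was 0.74 without curcumol replicate 2. Itgal, which encodes CD11a, the alpha chain of the ICAM receptor LFA-1, stood at 29.9, 35.0 and 14.9 CPM with curcumol and at 27.5 and 11.4 CPM without it. Its groups overlapped (0.45 ± 0.51, 95% interval -0.78 to 1.69, adjusted p = 0.663), and the difference turned to -0.03 without untreated replicate 2.

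**Figure D2:**
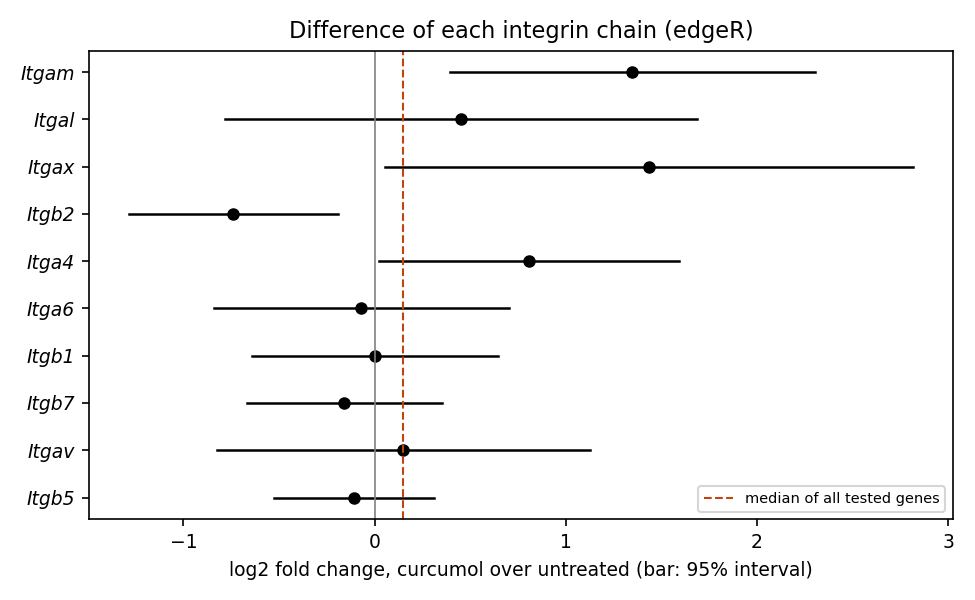
Log2 fold change of each integrin chain, curcumol over untreated, with its 95% interval from edgeR's quasi-likelihood fit (3 curcumol and 2 untreated libraries) and a dashed line at the median of all tested genes (0.15). The intervals of Itgam, Itgax and Itga4 lie above 0 and that of Itgb2 below 0, and none of the 10 passed an adjusted p of 0.05.

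Itgam and Itgax, the chains with the largest positive log2 fold changes, lie close together on mouse chromosome 7, with 1 predicted gene, Gm45700, between them in RefSeq's GRCm38.p6 annotation. Itgad, which lies beyond Itgax after Gm17831, had 0, 4 and 4 counts with curcumol and 0 and 167 without it, too few to be tested. The 250 bases before the start of Itgam and of Itgax, from RefSeq on GRCm38.p6, are shown because their differences had the same sign. Shared regulation was not tested. Capitals mark matches, on either strand, to GAGGAA (the core bound by PU.1, a myeloid factor), GGAAGT (a core of Ets factors) or GGGCGG (the core bound by Sp1). The strand printed is the plus strand, which is the coding strand of both genes.
Itgam chr7:128062390-128062639: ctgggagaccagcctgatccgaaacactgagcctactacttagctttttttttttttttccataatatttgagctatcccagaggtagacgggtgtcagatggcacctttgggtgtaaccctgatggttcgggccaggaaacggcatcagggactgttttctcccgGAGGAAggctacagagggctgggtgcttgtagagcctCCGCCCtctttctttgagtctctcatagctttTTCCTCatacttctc
Itgax chr7:128129300-128129549: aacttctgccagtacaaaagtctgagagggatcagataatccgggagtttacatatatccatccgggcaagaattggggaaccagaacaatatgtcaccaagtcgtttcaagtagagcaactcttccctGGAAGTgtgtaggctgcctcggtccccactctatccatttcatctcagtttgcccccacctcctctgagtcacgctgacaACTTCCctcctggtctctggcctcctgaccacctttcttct
The Itgam window held GAGGAA at 84 and, on the minus strand, 15 bases before the start, and GGGCGG on the minus strand at 47 bases before it. The Itgax window held GGAAGT at 121 bases before the start and, on the minus strand, at 41. No matched stretches overlapped in these windows. Of all 32851 windows of the same length 23.3% held GAGGAA, 19.7% GGAAGT and 32.7% GGGCGG, so single matches are common. Windows were found for 7 of the 10 chains, of which 3 held GAGGAA, 2 GGAAGT and 4 GGGCGG. A match describes these letters and is not a site.

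The balance of chains within the Itgb2 family also separated the groups. The summed level of the 4 alpha chains that pair with Itgb2 (Itgam, Itgal, Itgax and Itgad), divided by the level of Itgb2, both per kb, was 0.183, 0.338 and 0.202 in the curcumol libraries and 0.0729 and 0.0494 in the untreated libraries. All 3 curcumol libraries were above both untreated ones. In every library the alpha chains together were thus less abundant as RNA than their beta chain. This ratio is made of chains whose differences were known when it was chosen, and it is given as a description with no test.

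Itgam made up 86.7%, 84.8% and 85.5% of the summed alpha chains in the curcumol libraries, against 80.1% and 79.1% in the untreated libraries. The share of Itgal was 8.66%, 6.22% and 6.34% with curcumol, against 14.4% and 8.77% without it, and that of Itgax 4.62%, 8.93% and 8.09% with curcumol, against 5.54% and 7.99% without it. Itgam was the main alpha chain throughout, the groups did not overlap for Itgam or Itgal, and they overlapped for Itgax. Itgad, which encodes CD11d, had 0, 4 and 4 counts with curcumol and 0 and 167 counts without it, so its share of 4.19% came from 1 untreated library alone.

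**Figure D3:**
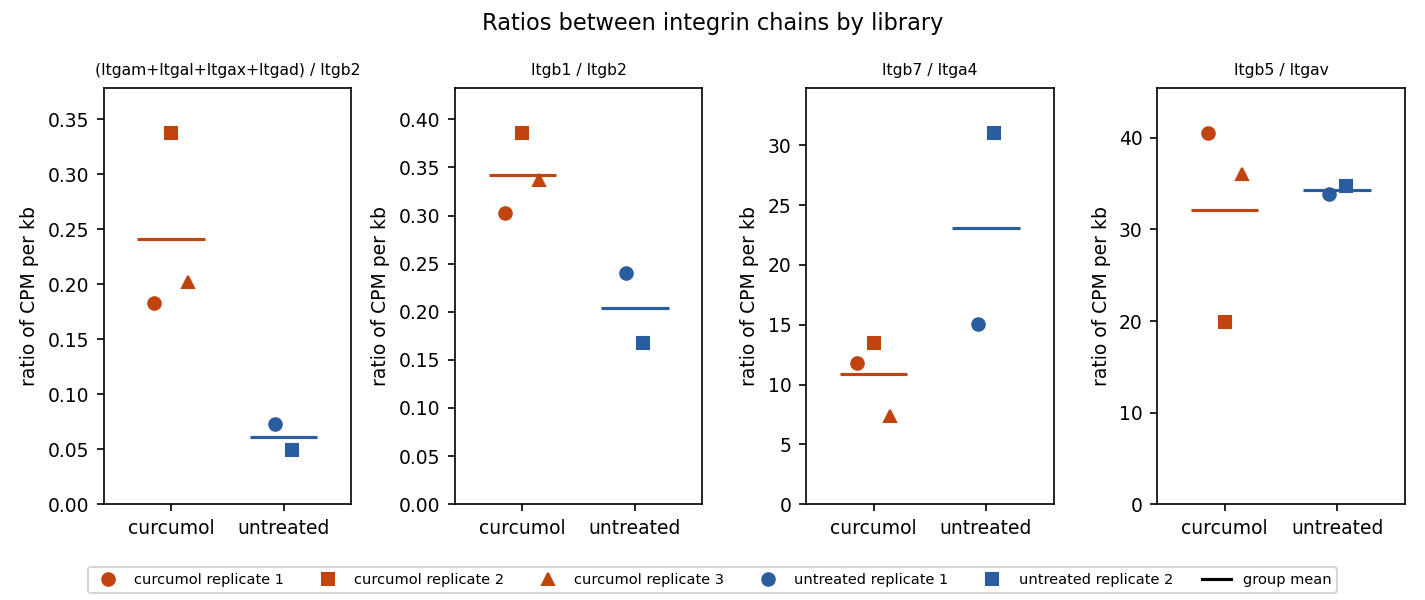
Ratios of CPM per kb between integrin chains, 1 point per library (3 curcumol, 2 untreated) and a line at each group mean, with axes from 0. The curcumol libraries lie above the untreated ones for the Itgb2 partners over Itgb2 and for Itgb1 over Itgb2, below them for Itgb7 over Itga4, and on both sides of them for Itgb5 over Itgav.

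Among the chains that pair with Itgb1 or Itgb7, Itga4 forms VLA-4 with Itgb1 and the gut-homing receptor with Itgb7, and binds VCAM-1, fibronectin and, with Itgb7, MAdCAM-1. It stood at 31.5, 28.2 and 35.7 CPM in the curcumol libraries and at 23.4 and 13.0 CPM in the untreated libraries. The groups did not overlap, with a gap of under 5 CPM between them. The log2 fold change was 0.81 ± 0.33 (unadjusted p = 0.0458, adjusted p = 0.192). It passed without untreated replicate 1 (1.29, adjusted p = 0.0200), and was 0.47 without untreated replicate 2.

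Itgb1 stood at 419, 470 and 286 CPM with curcumol and at 461 and 321 CPM without it. The group means of 392 ± 94.9 and 391 ± 98.8 CPM were near equal, and the 95% interval of the log2 fold change ran from -0.64 to 0.65 (adjusted p = 0.996). Differences within that interval are not excluded by these 5 libraries. The ratio of Itgb1 to Itgb2 per kb was 0.303, 0.386 and 0.337 with curcumol and 0.240 and 0.167 without it, and the groups did not overlap. With Itgb1 near equal, this ratio largely restates the lower Itgb2 and is a description with no test.

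Itgb7, a beta chain best known from lymphocytes that home to the gut, stood at 102, 104 and 72.7 CPM with curcumol and at 96.5 and 111 CPM without it. The groups overlapped (-0.16 ± 0.21, 95% interval -0.67 to 0.35, adjusted p = 0.721), and the sign turned with total counts as the scaling (0.03). Per kb Itgb7 exceeded its partner Itga4 by 11.8, 13.5 and 7.41 times with curcumol and by 15.03 and 31.06 times without it. Both untreated libraries were above the curcumol ones and lay far apart from each other. Since Itgb7 overlapped between the groups, this ratio largely restates the higher Itga4 and is a description with no test. Itga6, the laminin-binding partner of Itgb1, stood at 58.6, 118 and 106 CPM with curcumol and at 84.7 and 113 CPM without it. Its groups overlapped, with curcumol replicate 1 the lowest (-0.07 ± 0.32, 95% interval -0.84 to 0.70, adjusted p = 0.929), and its sign turned with total counts (0.12) and without curcumol replicate 1 (0.18).

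The alpha-v family also overlapped between the groups. Itgav, which binds RGD-containing ligands such as vitronectin, osteopontin and latent TGF-beta, stood at 23.8, 61.5 and 34.4 CPM with curcumol and at 38.1 and 33.8 CPM without it. Curcumol replicate 2 was the highest and replicate 1 the lowest of all 5 libraries (0.15 ± 0.40, 95% interval -0.83 to 1.13, adjusted p = 0.874), and without replicate 2 the difference was -0.30. Its partner Itgb5 stood at 449, 570 and 577 CPM with curcumol and at 601 and 546 CPM without it. The groups overlapped (-0.11 ± 0.17, 95% interval -0.53 to 0.31, adjusted p = 0.779), and its sign turned with total counts (0.09). Per kb Itgb5 exceeded Itgav by 40.6, 19.9 and 36.0 times with curcumol and by 33.9 and 34.7 times without it.

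Curcumol replicate 2 held the highest level of the 5 libraries for Itgam, Itgal, Itgax, Itga6, Itgb1 and Itgav, and curcumol replicate 3 the lowest for Itgb2, Itgb1 and Itgb7.

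Of the other integrin chains, 15 of 16 listed symbols were in the table and 10 were tested. None passed in edgeR (2 were higher and 0 lower at an unadjusted p under 0.05), and their median log2 fold change was -0.20. Over all tested genes 18.1% were higher and 6.51% lower at that p, with a median of 0.15. The 3 chains with the smallest p among those with an average log2 CPM of at least 1 were Itgae, Itga9 and Itga5. Itga5, the alpha chain of the fibronectin receptor with Itgb1, stood at 97.2, 129 and 77.2 CPM with curcumol and at 115 and 92.7 CPM without it (adjusted p = 0.949), close to the level of Itga6. Itga9, another partner of Itgb1, stood at 30.6, 44.0 and 18.5 CPM with curcumol and at 12.6 and 38.1 CPM without it (adjusted p = 0.816). Several low chains had counts in 1 untreated library and none in the other, and of these Itgb3, Itga1 and Itga8 were picked out after their values were seen. Itgae, the partner of Itgb7 that binds E-cadherin, had 61, 49 and 53 counts with curcumol and 268 and 0 counts without it. Itgb3 had 31, 216 and 56 counts with curcumol and 206 and 0 without it, Itga1 126, 278 and 54 with curcumol and 326 and 0 without it, and Itga8 17, 59 and 8 with curcumol and 0 and 229 without it. At this level the untreated libraries do not give a dependable mean.

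Genes that switch integrins on or tie them to actin were tested in 26 cases, and none passed in edgeR (6 higher and 3 lower at an unadjusted p under 0.05, median log2 fold change 0.01). The shares over all tested genes were 18.1% higher and 6.51% lower. Tln1, which encodes talin, the activator that binds beta chain tails, stood at 196, 242 and 172 CPM in the curcumol libraries and at 127 and 108 CPM in the untreated libraries. Flna, which encodes filamin A, a competitor of talin for the same tails, stood at 296, 551 and 319 CPM with curcumol and at 179 and 170 CPM without it. For both genes the curcumol libraries were all higher (0.79 ± 0.20 and 1.15 ± 0.30, adjusted p = 0.0768 and 0.0790). The same held for 29.5% of all tested genes. Tln2, another talin, stood at 5.95, 4.09 and 2.54 CPM in the curcumol libraries and had 0 counts in both untreated ones (adjusted p = 0.0637).

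Of 20 kinases and signalling genes downstream of integrins none passed in edgeR (4 higher and 1 lower at an unadjusted p under 0.05, median 0.06). These counts were near the shares over all tested genes, 18.1% higher and 6.51% lower. Vav3, a guanine nucleotide exchange factor, stood at 32.2, 42.3 and 32.8 CPM with curcumol and at 17.5 and 18.4 CPM without it. Ptk2b, the adhesion kinase Pyk2, stood at 78.9, 107 and 98.6 CPM with curcumol and at 57.0 and 69.8 CPM without it. Vav3 and Ptk2b were higher in all 3 curcumol libraries (0.997 ± 0.247 and 0.58 ± 0.20, adjusted p = 0.0755 and 0.143), as were 29.5% of all tested genes.

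Ligands and counter-receptors were tested in 22 cases, with none past the threshold in edgeR, 9 higher and 2 lower at an unadjusted p under 0.05, and a median of 0.59. At that p 18.1% of all tested genes were higher and 6.51% lower. For 5 of these 22 genes a group had no count, beside 1586 of all 14508 tested genes. C3, the complement component whose fragment iC3b binds Itgam and Itgax, stood at 42.8, 46.8 and 23.8 CPM with curcumol and at 9.22 and 5.24 CPM without it (2.38 ± 0.44, adjusted p = 0.0651). Icam1, the counter-receptor of Itgal and Itgam, stood at 147, 128 and 125 CPM with curcumol and at 217 and 293 CPM without it (-0.94 ± 0.19, adjusted p = 0.0651). Spp1, which encodes osteopontin, a ligand of Itgav and Itga4, stood at 7976, 5690 and 9030 CPM with curcumol and at 12666 and 15310 CPM without it (-0.89 ± 0.24, adjusted p = 0.0801). For each of these 3 genes all curcumol libraries lay on the same side of both untreated ones. Of all tested genes 29.5% were all higher and 14.9% all lower. Vcam1, the counter-receptor of Itga4, was picked out after its values were seen. It stood at 54.7, 124 and 43.3 CPM with curcumol and at 0.735 and 11.7 CPM without it, a wide spread in both groups (3.58 ± 1.13, adjusted p = 0.112).

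Of 11 membrane proteins that associate with integrins none passed in edgeR (1 higher and 3 lower at an unadjusted p under 0.05, median -0.23). Over all tested genes the shares were 18.1% and 6.51%. Plaur, the urokinase receptor that binds Itgam laterally, stood at 202, 139 and 162 CPM with curcumol and at 478 and 571 CPM without it (-1.64 ± 0.20, adjusted p = 0.0523). Slc3a2, the CD98 heavy chain that binds the tails of beta chains, stood at 512, 428 and 498 CPM with curcumol and at 950 and 751 CPM without it (-0.83 ± 0.17, adjusted p = 0.0659). Cd9, a tetraspanin partner of Itgb1 integrins, stood at 207, 271 and 209 CPM with curcumol and at 379 and 450 CPM without it (-0.86 ± 0.19, adjusted p = 0.0671). All 3 curcumol libraries were lower for each of these genes, as for 14.9% of all tested genes. Plaur, Slc3a2, Cd9 and the genes named by rule from the lists before were picked for the smallest p. Groups that do not overlap are thus no further support for them. Of the 89 tested genes of these 5 lists DESeq2 called 24, of which 16 were higher and 8 lower, and limma-voom called 12, beside 16.5% and 11.4% of all tested genes.

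**Figure D4:**
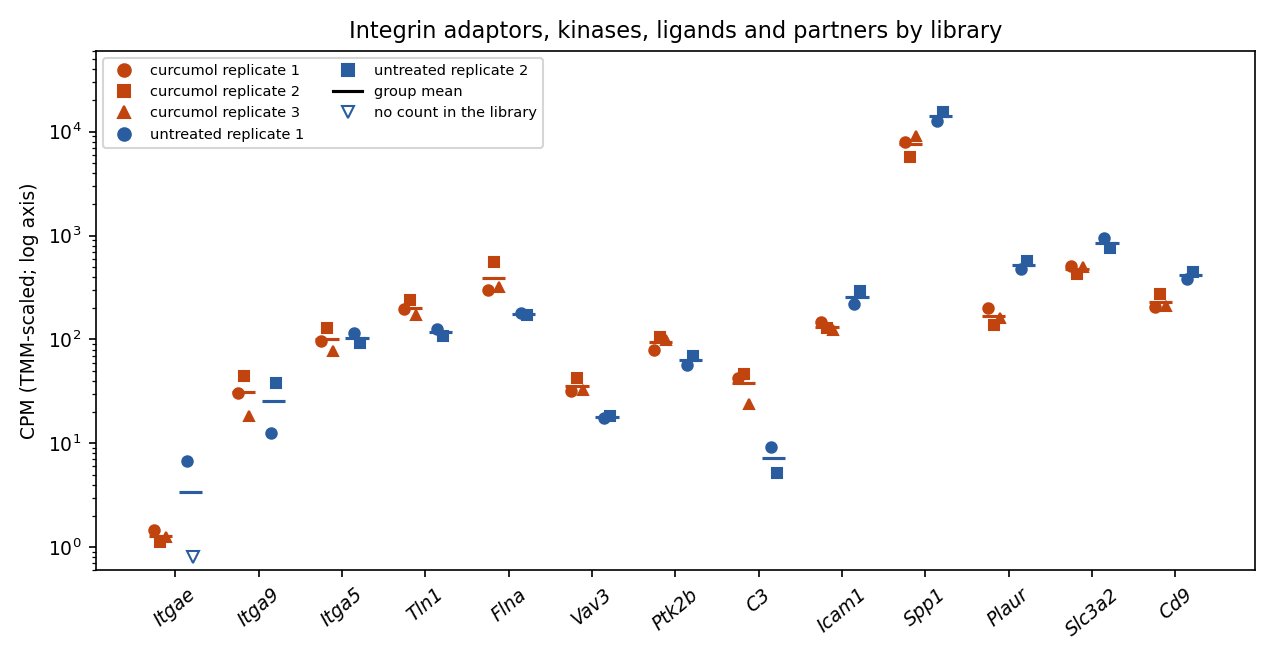
CPM on a log axis of genes of the integrin pathway, 1 point per library (3 curcumol, 2 untreated) with a line at each group mean; an open triangle marks a library without a count. Tln1, Flna, Vav3, Ptk2b and C3 lie higher in all 3 curcumol libraries and Icam1, Spp1, Plaur, Slc3a2 and Cd9 lower, and none passed an adjusted p of 0.05. The genes shown were picked for the smallest p in their lists.

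Markers of neutrophils, fibroblasts, endothelial cells and cardiomyocytes were mostly higher with curcumol. In edgeR 2 of 9 neutrophil and 2 of 6 fibroblast markers passed the threshold, all higher, beside 0.207% of all tested genes. No marker of the other lists passed. Of all 14508 tested genes 29.5% were higher in every curcumol library, and 1586 had no count in any library of 1 of the groups. The summed level of 9 neutrophil markers was 3379, 1434 and 2905 CPM in the curcumol libraries and 311 and 325 CPM in the untreated libraries, all 9 were higher in every curcumol library, and Camp and Ly6g had no count without curcumol. Neutrophils carry Itgam, Itgal and Itgb2. Both the neutrophil sum and Itgam were higher in every curcumol library than in both untreated ones, and Itgb2 was lower. In the curcumol libraries, in the order of the sums above, Itgam stood at 269, 428 and 180 CPM. Itgb2 stood at 1077, 948 and 662 CPM there. The part of neutrophil RNA in these values was not tested. Itgb2l, an Itgb2-like chain picked out after its values were seen, had 445, 185 and 234 counts with curcumol and 0 in both untreated libraries (6.78 ± 3.40 CPM with curcumol, adjusted p = 0.0597). No fold is given for Tln2 or Itgb2l, since other genes at this level had 0 counts in 1 untreated library and over 200 in the other.

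The summed level of 4 resident macrophage markers was 1204, 1088 and 371 CPM with curcumol and 350 and 341 CPM without it. That of 4 recruited monocyte markers was 1987, 786 and 1280 CPM with curcumol and 1538 and 1416 CPM without it. Its largest part was Chil3 in curcumol replicates 1 and 3 (1317 and 968 CPM) and in both untreated libraries (785 and 776 CPM). In curcumol replicate 2 the largest part was Ccr2. Ccr2 stood at 537, 422 and 237 CPM with curcumol and at 627 and 479 CPM without it. Within the curcumol group Chil3 had the order of the recruited monocyte sum and Ccr2 did not. Beside resident sums of 1204, 1088 and 371 CPM, Itgam stood at 269, 428 and 180 CPM in the curcumol libraries. Beside 350 and 341 CPM, it stood at 138 and 92.0 CPM in the untreated ones. Fibroblast markers (6 genes) summed to 126 to 303 CPM with curcumol and to 36.8 and 23.3 CPM without it, endothelial markers (6 genes) to 21.9 to 33.0 CPM with curcumol and to 4.66 and 5.09 CPM without it, and cardiomyocyte markers (6 genes) to 71.9 to 93.5 CPM with curcumol and to 19.3 and 48.9 CPM without it. Pdgfra and Lum of the fibroblast list, Cdh5 and Tie1 of the endothelial list and Ttn of the cardiomyocyte list had no count in either untreated library. In each of these lists 5 of 6 markers were higher in every curcumol library, beside 29.5% of all tested genes. Fibroblasts and endothelial cells carry Itgb1, Itgav and Itgb5, whose groups overlapped. Dendritic markers (6 genes), whose cells carry Itgax, summed to 65.8, 52.6 and 37.1 CPM with curcumol and to 51.6 and 29.6 CPM without it. Cd209a stood at 42.2, 19.8 and 16.2 CPM with curcumol and at 41.7 and 8.14 CPM without it. It was the largest part of these sums except in curcumol replicate 2 (Flt3, 20.5 CPM) and untreated replicate 2 (Zbtb46, 9.54 CPM). Higher in every curcumol library were 3 of the 6 markers, beside 29.5% of all tested genes. Clec9a and Siglech had no count in either untreated library. Lymphocytes, which carry Itgal, Itga4 and Itgb7, had sums of 41.8 to 80.9 CPM for 7 T and NK markers with curcumol, against 27.0 and 40.9 CPM without it, and of 67.0 to 98.9 CPM for 5 B cell markers with curcumol, against 54.7 and 36.5 CPM without it. Of these markers 2 of 7 for T and NK cells and 4 of 5 for B cells were higher in every curcumol library. A sort for CD45 and CD64 is meant to remove fibroblasts, endothelial cells, cardiomyocytes and lymphocytes. The part of these cells in the integrin values was not tested.

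**Figure D5:**
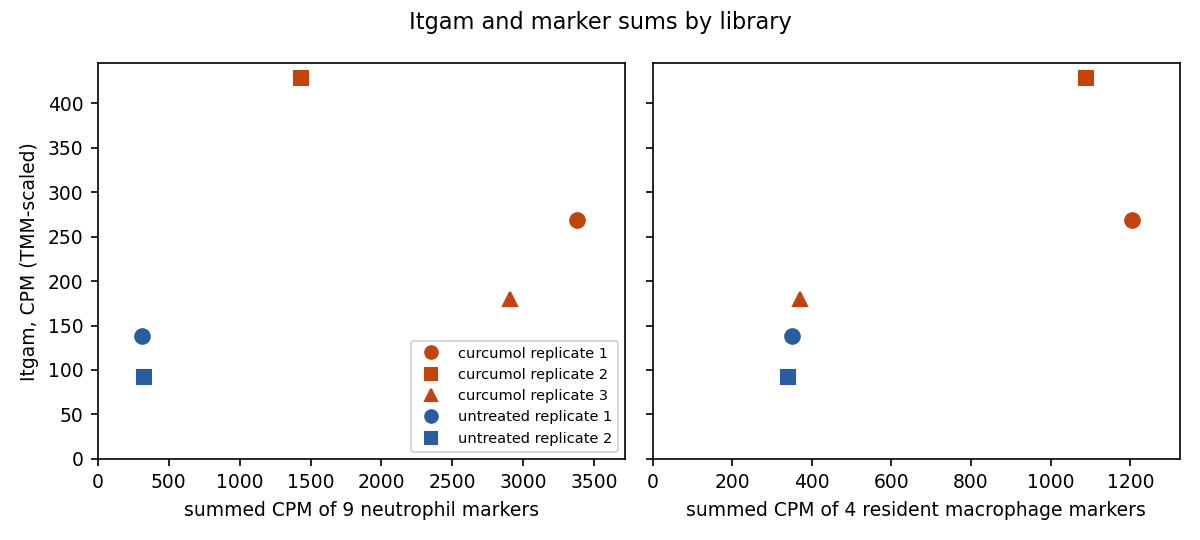
Itgam in CPM against the summed CPM of 9 neutrophil markers (left) and of 4 resident macrophage markers (right), 1 point per library (3 curcumol, 2 untreated). All 3 curcumol libraries lie above both untreated ones on every axis. On the resident axis curcumol replicate 3 does so narrowly (371 against 350 and 341 CPM), and only Cd163 of the 4 markers was higher in every curcumol library. Within the curcumol group the order of Itgam differs from that of both sums. The part of each cell type in Itgam was not tested.

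Profiles over the 5 libraries were set side by side for the beta chains Itgb2 and Itgb1, among 4397 other genes with an average log2 CPM of at least 5. Likeness was the Euclidean distance between log2 CPM values centred on each gene's mean. The nearest to Itgb2 were Pgm2, Tars and Pgap2, at distances of 0.121, 0.134 and 0.161. Pgm2, a phosphoglucomutase, stood at 40.9, 36.2 and 24.0 CPM with curcumol and at 60.6 and 60.5 CPM without it. The nearest to Itgb1 were Magt1, Tmem123 and Kbtbd2, at distances of 0.0365, 0.0867 and 0.111. Itgb2's own partner Itgam was among the least like it, at a distance of 2.38 and rank 4271 of 4397. In these same libraries Itgam was all higher and Itgb2 all lower with curcumol. The distance thus largely restates those differences and is not a further result. Itgam was also far from Itgb1, at a distance of 1.47 and rank 4083. With 5 libraries these distances describe this set of samples.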

How the data were processed

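Gene counts came from bulk RNA sequencing of CD45+CD64+ cells of infarcted mouse hearts, 3 curcumol and 2 untreated samples. The table the authors deposited holds unnormalized whole-number read counts for each gene, with fastp, HISAT2, HTSeq and Bowtie2 named in the submitters' processing notes. The build is not given in the sources used here, nor is the annotation. The library kit is named differently in the labels' protocols and in the series' design text, so strandedness is not settled. Columns were tied to samples by title. Of 21289 genes 752 had no count.

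Counts were filtered with filterByExpr (minimum count 10) and tested by the quasi-likelihood method of edgeR 4.0.16 under R 4.3.3, using TMM factors and group as the only term, two-sided, with Benjamini-Hochberg adjustment over 14508 genes. The biological coefficient of variation was 0.610. SEs and 95% intervals were derived from the F statistic. CPM used the TMM-scaled library sizes, and 3 counts came to 0.0681 to 0.0717 CPM in the curcumol and 0.0760 and 0.0767 CPM in the untreated libraries. Floors cover counting error only. With 3 and 2 samples no exact permutation p can be under 0.1, so none was used. All pairs of libraries differed beyond sampling noise (chi-square per gene of 76.8 to 297). Transcript lengths were those of the longest coding transcript in GENCODE M21. Promoter windows came from RefSeq (GRCm38.p6), cut to the 250 bases before the start.

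The members and lists were chosen with earlier results of these data known, and no test is read as independent support. Genes named beyond the 10 members were, per pathway list, those past the threshold or else the 3 with the smallest p at an average log2 CPM of at least 1, and the 3 nearest profiles of Itgb2 and Itgb1. Itgad, Itgb3, Itga1, Itga8, Vcam1 and Itgb2l were named outside this rule, after their values were seen. So were single genes of the cell marker lists other than Ptprc and Fcgr1. A gene of the kinase list that this rule names is not reported here. Profiles used log2 of CPM plus 0.5. The procedure was run on simulated data with changes larger than those of any chain, which checks the code and is no support for the results here. Alternatives were RLE factors, total counts, DESeq2 1.42.0, no filter, a CPM of at least 1 in 2 libraries, limma-voom (limma 3.58.1), the replicate number as a block, abundant genes only and leaving out each library.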

Additional observations from a re-analysis of the deposited data

How the results depend on the processing

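Itgam (log2 fold change 0.97 to 1.67 over 13 alternatives), Itgax (0.74 to 1.72 over 12), Itga4 (0.47 to 1.29 over 12) and Itgb2 (-0.89 to -0.56 over 13) kept their sign wherever they were tested, as groups that do not overlap mostly must. No chain passed in edgeR, 2 passed with DESeq2, and 0 to 2 passed when a library was left out, with Itgam and Itga4 past the threshold without untreated replicate 1. A fit without an untreated library leaves 1 in that group, which is then assumed to vary like the curcumol libraries. Signs turned for Itgb1 with RLE factors (-0.00756), DESeq2 (-0.00756), a CPM of at least 1 (-0.0117), limma-voom (-0.00343) and without curcumol replicate 1 (-0.04), curcumol replicate 2 (-0.15) or untreated replicate 2 (-0.21). They turned for Itga6 with total counts (0.12), abundant genes only (0.0301) and without curcumol replicate 1 (0.18) or untreated replicate 2 (0.17), for Itgb5 with total counts (0.0854) and without curcumol replicate 1 (0.00543), for Itgb7 with total counts (0.0259), for Itgal without untreated replicate 2 (-0.0282) and for Itgav without curcumol replicate 2 (-0.30). With a library left out, the other ends of the ranges were 1.23 for Itgal, -0.26 for Itga6, 0.29 for Itgb1, 0.42 for Itgav and -0.17 for Itgb5. The cause was not tested. Total counts moved the median of all genes to 0.34, against 0.15 with TMM factors. The genes called numbered 30 of all tested, and 10 with total counts, 2397 with DESeq2, 416 without a filter, 98 with a CPM of at least 1, 1661 with limma-voom, 179 among abundant genes, and 0 (without curcumol replicate 2; 2383 at an unadjusted p under 0.05) to 3531 (without untreated replicate 2) with a library left out. Without curcumol replicate 1 or 3 there were 1 and 19, and without untreated replicate 1 there were 2950. Of the pathway genes 0 were called, and 24 with DESeq2, 4 without a filter, 1 with a CPM of at least 1, 12 with limma-voom, 2 among abundant genes and 0 to 21 with a library left out. Itgam's share of the Itgb2 partners was 6.11 percentage points higher with curcumol, and 5.58 to 6.63 with a library left out. Titles number the replicates but do not state that a number pairs samples, and deviations of samples with the same number hardly correlated (r = 0.0442 and 0.0121). With the replicate number as a block 45 genes and 0 chains passed.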
